A study of Rattus norvegicus with 32 samples.

Results

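The genes examined here encode the hydrolases of the lysosome, its main membrane proteins and the subunits of the proton pump that acidifies it. They were chosen by name: 27 listed genes and all genes whose symbol begins with Atp6v0 or Atp6v1, which gave 48 genes of the 32623 in the files. No measured value entered the rule, but the list was proposed with earlier results of these data known. Counts allowed a test of 43 of the 48 in most comparisons. The pump subunits Atp6v0a4, Atp6v1b1, Atp6v1e2, Atp6v1g2 and Atp6v1g3 had too few counts in all comparisons, and Atp6v0d2 and Atp6v1c2 could not be tested in cirrhosis against healthy or in the TAA experiment.

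RNA of liver sinusoidal endothelial cells (LSECs) of rats was sequenced as 32 poly(A) libraries, each given as RSEM expected counts per gene. In the carbon tetrachloride (CCl4) model, the rats were male Wistar Han that inhaled CCl4, with phenobarbital in the drinking water of that model. There were 6 healthy libraries from untreated rats, 5 after 2 weeks of CCl4 (acute), 5 after 6 weeks (fibrosis) and 6 after 12 to 14 weeks (cirrhosis). A second experiment with thioacetamide (TAA), injected into the peritoneum, gave 5 libraries labelled control and 5 labelled TAA control rat. The labels give Wistar Han for these 10 libraries and the study's methods give Sprague-Dawley, and which of the 2 groups received TAA could not be settled. Their difference is therefore given as labelled TAA control minus labelled control, with no direction of disease.

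Lysosomes break down what a cell takes up or discards. LSECs are the main scavenger endothelium of the body, and what they endocytose through their stabilin and mannose receptors is degraded in lysosomes. Cathepsins and legumain cut proteins, glycosidases trim sugars from glycoproteins and glycolipids, Lipa, Npc1 and Npc2 release and export cholesterol, and Psap is the precursor of the saposins that present sphingolipids to their enzymes. The V-ATPase pumps protons into the lumen. Its V0 sector lies in the membrane and conducts the protons, and its V1 sector lies in the cytosol and hydrolyses ATP. Tfeb is a transcription factor of many lysosomal genes.

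Totals ran from 25646531 to 46464289 counts per library. The LSEC marker list, summed in CPM (counts scaled to the library's size after TMM normalisation), ran from 19737 to 39128 CPM in healthy and from 18750 to 24324 CPM in cirrhosis, but from 3987 to 4700 CPM in acute and from 2682 to 3911 CPM in fibrosis. Stab2, a scavenger receptor that defines LSECs, was at 99.6 to 272 CPM in acute and 88.6 to 238 CPM in fibrosis, against 1470 to 5056 CPM in healthy. Kupffer cell and macrophage markers summed to 653 to 4790 CPM in healthy, 122 to 299 CPM in acute, 54.1 to 294 CPM in fibrosis and 1458 to 4079 CPM in cirrhosis. Hepatocyte markers summed to 831 to 19250 CPM in healthy, 101 to 839 CPM in acute, 1105 to 4578 CPM in fibrosis and 1879 to 12015 CPM in cirrhosis. All 12 tested were called lower in acute than in healthy, as were 12 of 14 macrophage and 11 of 13 LSEC markers. Stellate cell markers summed to 166 to 606 CPM in healthy, 9.75 to 34.1 CPM in acute and 492 to 1707 CPM in cirrhosis, where 9 of 10 were called higher than in healthy. Within healthy, replicates 3 and 5 had macrophage sums of 653 and 748 CPM against 2048 to 4790 CPM in the other 4, and hepatocyte sums of 2313 and 831 CPM against 9963 to 19250 CPM. In bulk samples, fewer cells of a type and less RNA per cell cannot be told apart.

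After 2 weeks of CCl4, lysosomal hydrolase transcripts were much lower than in healthy LSECs, while transcripts of the cytosolic V1 sector of the proton pump were higher. Of the 43 members tested, 24 fell and 8 rose by more than 1.5-fold at an adjusted p below 0.05, which is 32 called in a comparison where 73.4% of all 14317 genes tested were called. Over all genes, 35.5% were called higher and 37.9% lower. The acute and healthy libraries did not overlap in 29 of the 43 members, against 60.4% of all genes. The median log2 fold change was -1.22 over the members and -0.09 over all genes tested. Among the 22 hydrolases and lipid-handling proteins, 18 fell and 1, Npc1, rose, with a median of -2.20. In the V0 sector 4 of 7 fell and 1 rose, whereas in the V1 sector 6 of 9 rose and 0 fell. These rises include the low-count Atp6v0d2 (V0) and Atp6v1c2 (V1), which passed the count filter through the acute libraries. With a filter of 1 CPM, which removed both, 24 of 41 members fell and 6 rose. Of the 12739 genes then tested, 4822 were called lower and 4620 higher.

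**Figure D1:**
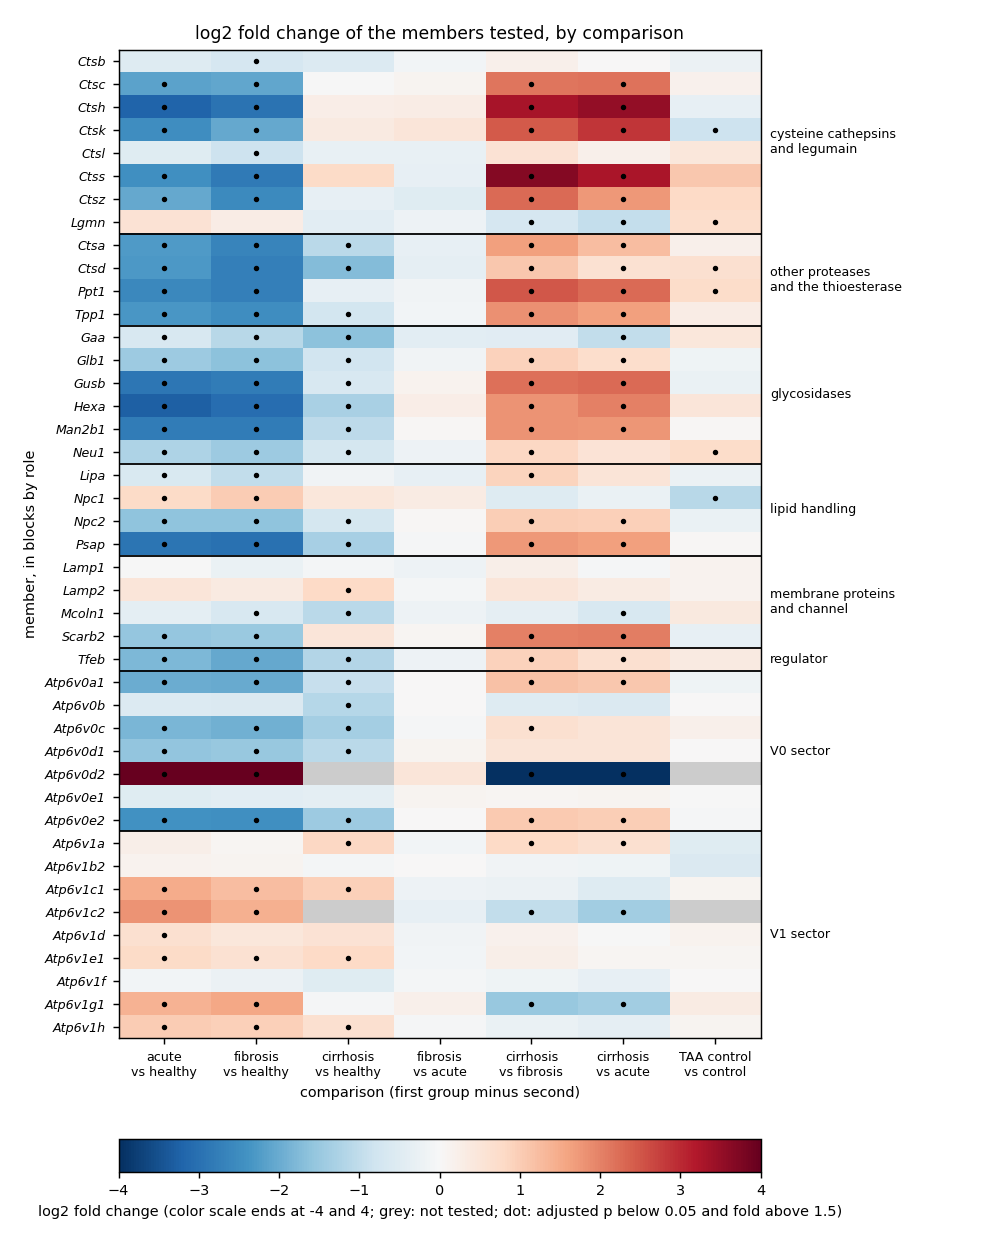
The heat map shows the log2 fold change (color, from -4 to 4) of 43 members in 7 comparisons, in blocks by role, with a dot where a member was called and grey where it was not tested. The first 2 columns are blue in most hydrolases (18 and 20 of 22 fell) and red in the V1 block (6 and 5 of 9 rose), and the fibrosis vs acute column holds 0 dots.

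Psap, the saposin precursor, was at 3543 CPM in the lowest, 7606 in the median and 8487 in the highest healthy library. It was at 1042, 759, 881, 814 and 725 CPM in the 5 acute libraries and at 882, 730, 895, 691 and 689 CPM in the 5 fibrosis libraries. The cirrhosis libraries had 2194 CPM at the lowest, 2515 at the median and 3270 at the highest, so the healthy libraries lay above all others of the model, cirrhosis lay between, and acute and fibrosis overlapped with each other. The log2 fold change against healthy was -2.91 (SE 0.23, adjusted p = 2.8e-07) in acute, -3.00 (SE 0.22, adjusted p = 2.5e-07) in fibrosis and -1.32 (SE 0.23, adjusted p = 0.00051) in cirrhosis.

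Hexa, the alpha subunit of beta-hexosaminidase, which degrades gangliosides, had the largest fall of any member in acute. It was at 172, 333 and 441 CPM in the lowest, median and highest healthy library and at 31.8, 32.4, 31.5, 35.5 and 28.0 CPM in acute. In fibrosis it was at 31.9, 36.4, 36.9, 42.2 and 35.7 CPM, and in cirrhosis at 117, 121 and 154 CPM (lowest, median, highest). The 4 groups kept the order healthy, cirrhosis, then acute with fibrosis, and healthy did not overlap with any of the 3 others. Its log2 fold change was -3.27 (SE 0.22) in acute, -3.03 (SE 0.22) in fibrosis and -1.28 (SE 0.22) in cirrhosis.

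The other glycosidases went the same way to unequal extents. In acute, the log2 fold change was -2.89 for Gusb (beta-glucuronidase), -2.80 for Man2b1 (lysosomal alpha-mannosidase), -1.44 for Glb1 (beta-galactosidase), -1.22 for Neu1 (sialidase) and -0.63 for Gaa (acid alpha-glucosidase, which degrades glycogen). The acute call of Gaa was lost without TMM (-0.21) and with some single libraries left out, such as healthy replicate 1 (-0.48). Gaa reached its lowest level in cirrhosis. It was at 145, 295 and 349 CPM in the lowest, median and highest healthy library, at 193, 155, 194, 141 and 153 CPM in acute, at 109, 93.7, 139, 110 and 135 CPM in fibrosis and at 72.3, 81.1 and 115 CPM (lowest, median, highest) in cirrhosis. Against healthy, the log2 fold change was -1.63 (SE 0.23) in cirrhosis, and Gaa was lower in cirrhosis than in acute by a log2 fold change of -0.97 (SE 0.13, adjusted p = 1.9e-05).

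Ctsd, the lysosomal aspartic protease, was at 1038, 2505 and 3354 CPM in the lowest, median and highest healthy library and at 540, 523, 473, 471 and 302 CPM in acute. It was at 356, 323, 380, 290 and 307 CPM in fibrosis and at 633, 665 and 844 CPM (lowest, median, highest) in cirrhosis. No healthy library fell as low as any of the other groups. The log2 fold change was -2.31 (SE 0.27) in acute, -2.73 (SE 0.25) in fibrosis and -1.73 (SE 0.25, adjusted p = 0.00019) in cirrhosis, which was the largest fall of any member in cirrhosis. In acute, the log2 fold change was -2.27 for Ctsa (cathepsin A, a carboxypeptidase), -2.57 for Ppt1 (palmitoyl-protein thioesterase) and -2.34 for Tpp1 (tripeptidyl peptidase). Reads of Ctsa were shared with other genes in 100% of the libraries, as its fractional counts show, so its values are uncertain.

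**Figure D2:**
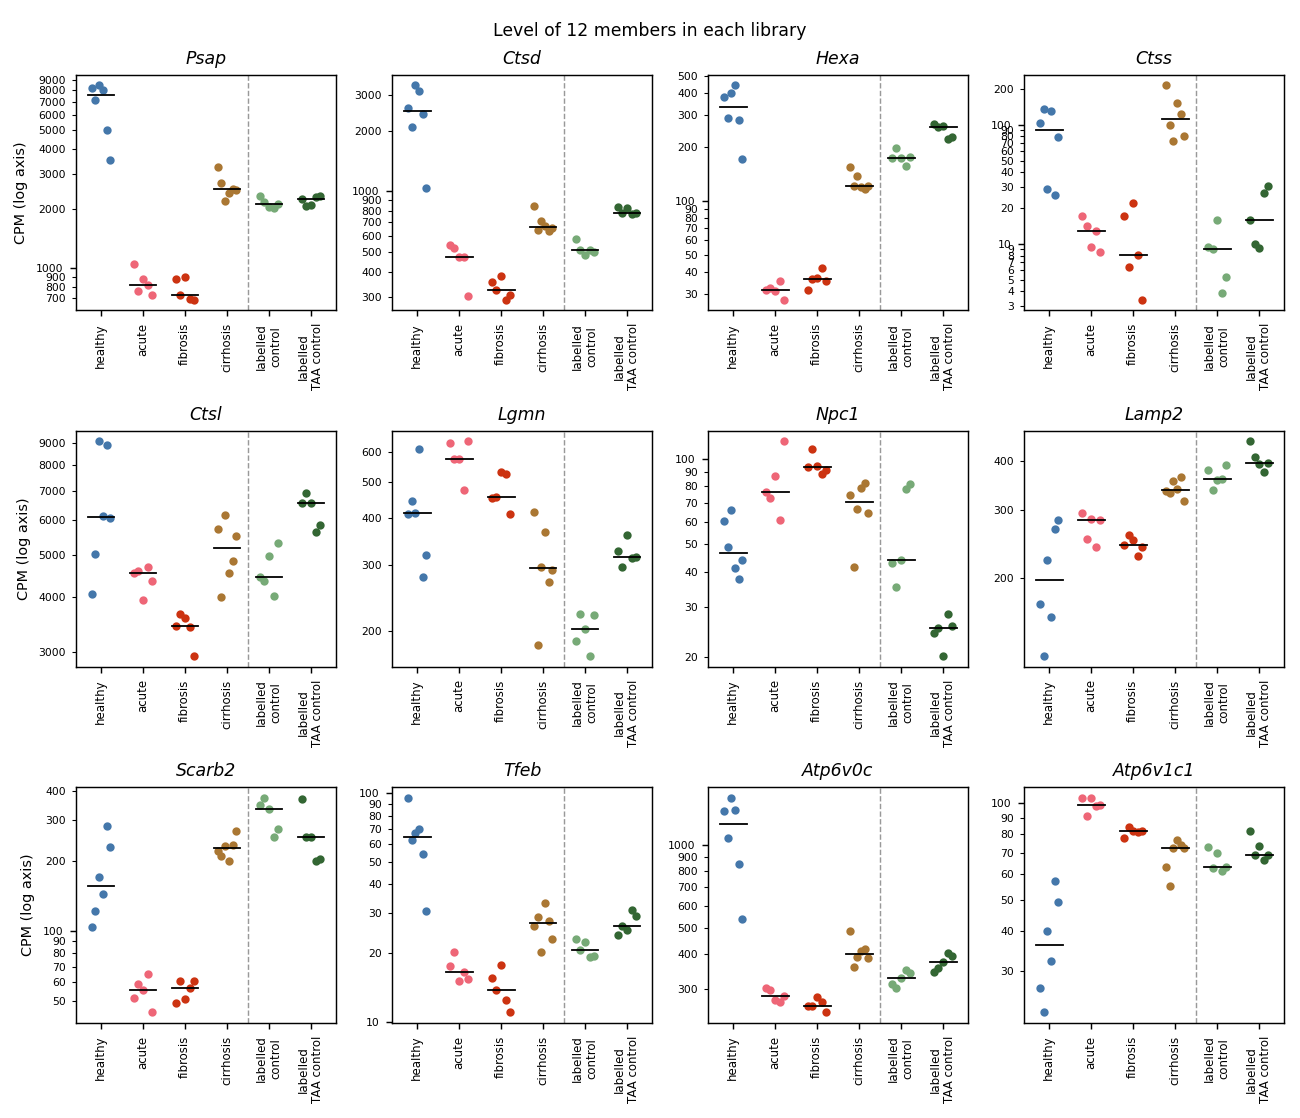
Each panel plots the CPM of 1 member (log axis) in each library, with a line at the group median. The dashed line separates the CCl4 model from the TAA experiment, which was scaled separately. Psap, Ctsd, Hexa, Tfeb and Atp6v0c are lower in acute and fibrosis than in every healthy library, whereas Atp6v1c1 is higher in acute and fibrosis (77.9 to 104 CPM) than in every healthy library (22.2 to 57.3 CPM).

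Of the 8 cysteine cathepsins and legumain, 5 fell in acute. The log2 fold changes of Ctsc, Ctsh, Ctsk, Ctss and Ctsz ran from -3.21 to -2.04, whereas Ctsb and Ctsl were not called there and Lgmn, the asparaginyl endopeptidase that matures cathepsins, had a log2 fold change of 0.56 (SE 0.20, adjusted p = 0.02), short of 1.5-fold. Ctsl, a broad endopeptidase, took more counts than any other member in 29 of 32 libraries, with no correction for transcript length. It was at 4073, 6087 and 9061 CPM in the lowest, median and highest healthy library, at 4549, 4591, 3948, 4697 and 4357 CPM in acute and at 3441, 3668, 3578, 3427 and 2938 CPM in fibrosis. The healthy and acute ranges overlapped, the healthy and fibrosis ranges did not, and the log2 fold change was -0.47 (SE 0.20) in acute and -0.82 (SE 0.19, adjusted p = 0.0022) in fibrosis. Lgmn was at 279, 412 and 611 CPM in the lowest, median and highest healthy library, at 636, 575, 575, 477 and 642 CPM in acute and at 183, 294 and 417 CPM (lowest, median, highest) in cirrhosis. It was thus lower in cirrhosis than in acute (log2 fold change -0.97, SE 0.18) without being called different from healthy in either.

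Ctss, an endopeptidase of antigen-presenting cells, varied within groups together with the macrophage markers. In the healthy libraries 1 to 6 it was at 103, 135, 28.8, 130, 25.6 and 78.3 CPM, with the low values in replicates 3 and 5, where the macrophage marker sums were 653 and 748 CPM. It was at 17.3, 14.2, 9.50, 12.9 and 8.49 CPM in acute and at 17.1, 6.40, 21.9, 8.09 and 3.41 CPM in fibrosis. In cirrhosis it was at 72.8, 112 and 214 CPM (lowest, median, highest), so cirrhosis overlapped with healthy and acute and fibrosis lay below both. Ctsh (an aminopeptidase) and Ctsz (a carboxypeptidase) were also low in healthy replicates 3 and 5, at 42.6 and 53.8 CPM against 116 to 203 CPM, and at 60.0 and 40.3 CPM against 66.3 to 335 CPM. Ctsk, by contrast, was at 156 and 103 CPM in these replicates and at 67.3 to 95.3 CPM in the other 4. The part of the macrophage transcripts in these differences was not tested.

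**Figure D3:**
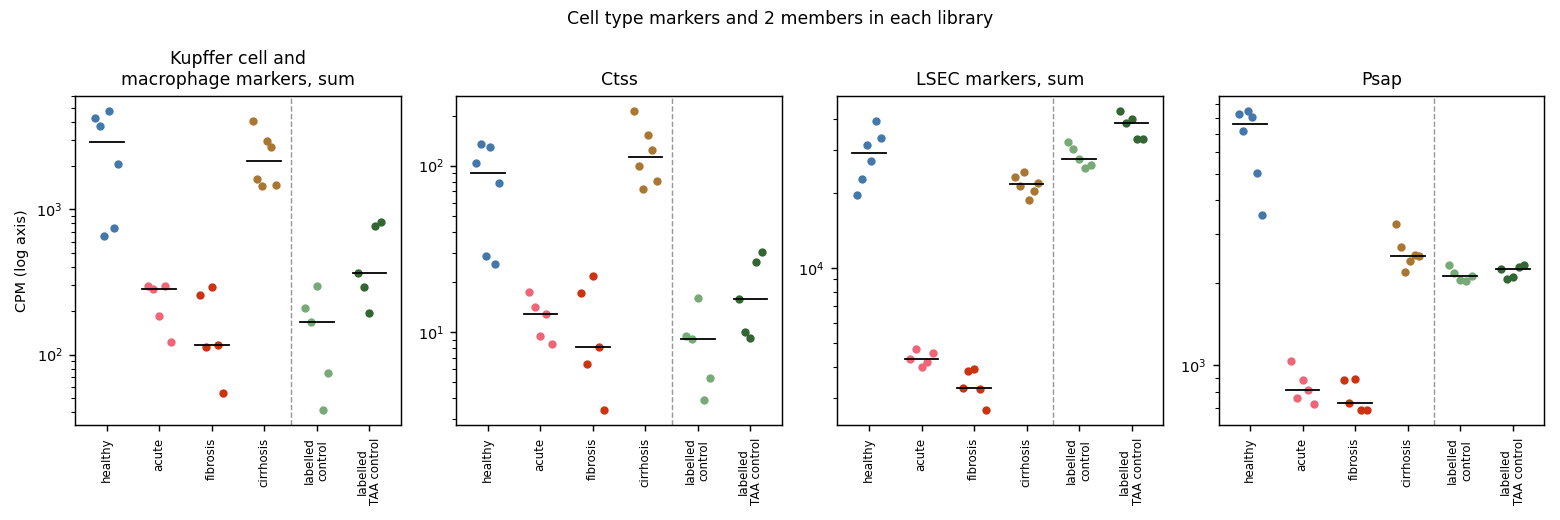
The panels plot, for each library, the summed CPM of Kupffer cell and macrophage markers, the CPM of Ctss, the summed CPM of LSEC markers and the CPM of Psap, all on log axes with lines at the medians. The dashed line separates the 2 experiments, scaled separately. Healthy replicates 3 and 5 are low for macrophage markers (653 and 748 CPM) and for Ctss (28.8 and 25.6 CPM), but not for Psap (8487 and 5008 CPM).

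Since healthy libraries 3 and 5 held the fewest macrophage, hepatocyte and cholangiocyte transcripts, the fit was repeated with these 2 as the only healthy libraries, a choice made after seeing the data. The median log2 fold change of the 22 hydrolases and lipid-handling proteins in acute was then -1.63, with 17 lower and 2 higher, and in fibrosis -1.77, with 20 lower and 1 higher. Of all 14700 genes tested in this acute fit, 4899 were called lower and 4985 higher. In fibrosis, 4944 of 14951 were called lower and 4811 higher. In acute, Lipa, Gaa and Atp6v1d lost their calls, and Ctsl (lower) and Lgmn (higher) gained one. In fibrosis, among the members tested in both fits, Atp6v1e1 and the low-count Atp6v1c2 lost their calls, and Atp6v0e1 (lower) gained one.

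Among the lipid-handling members, Npc1, the membrane cholesterol exporter, rose. It was at 37.7, 46.5 and 66.0 CPM in the lowest, median and highest healthy library, at 76.2, 73.0, 86.9, 60.8 and 115 CPM in acute and at 93.7, 108, 94.3, 88.6 and 91.3 CPM in fibrosis. The acute range overlapped with the healthy one and the fibrosis range did not. Its log2 fold change was 0.76 (SE 0.21, adjusted p = 0.0047) in acute and 1.03 (SE 0.16, adjusted p = 0.00011) in fibrosis. Counts of Npc1 were fractional in 93.8% of the libraries, so its values, in the TAA experiment too, are uncertain. Npc2, its soluble partner, went the other way, from 202 to 419 CPM in healthy to 84.6 to 107 CPM in acute (log2 fold change -1.60, SE 0.21). Lipa, the acid lipase, fell by 0.61 in acute and 0.97 in fibrosis on the log2 scale. Its acute call was lost with DESeq2 (-0.55), without TMM (-0.20) and with some single libraries left out, such as acute replicate 8 (-0.46).

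Of the 4 membrane proteins, Scarb2 alone was called in acute. Lamp1, a main glycoprotein of the lysosomal membrane, was at 682, 815 and 1018 CPM in the lowest, median and highest healthy library and at 853, 727, 841, 701 and 812 CPM in acute (log2 fold change -0.02, SE 0.15, adjusted p = 0.89). Acute lay within the healthy range, and 4 of 5 fibrosis libraries, at 604 to 653 CPM, lay below it (log2 fold change -0.27, SE 0.13). Lamp2, the partner of Lamp1, was higher than healthy in cirrhosis, at 316, 337 and 363 CPM against 127, 198 and 282 CPM (lowest, median, highest), without overlap (log2 fold change 0.79, SE 0.18, adjusted p = 0.0027). With healthy replicates 3 and 5 alone that value was 0.49 and was not called.

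Scarb2, the receptor that carries beta-glucocerebrosidase to lysosomes, was at 104, 156 and 282 CPM in the lowest, median and highest healthy library. It was at 51.7, 59.0, 55.9, 65.3 and 44.7 CPM in acute and at 48.8, 60.9, 51.1, 57.0 and 60.9 CPM in fibrosis, both below all healthy libraries. In cirrhosis it was at 200, 226 and 269 CPM, within the upper healthy range. The log2 fold change was -1.55 (SE 0.24) in acute, -1.50 (SE 0.23) in fibrosis and 0.47 (SE 0.21, adjusted p = 0.07) in cirrhosis. Mcoln1, the calcium-release channel of the lysosome, was lowest in cirrhosis, at 22.9 to 26.9 CPM against 33.6 to 69.9 CPM in healthy (log2 fold change -1.07, SE 0.18), and was not called in acute (-0.40, SE 0.18).

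Tfeb itself was at 30.5, 64.7 and 95.8 CPM in the lowest, median and highest healthy library. It was at 17.6, 20.2, 15.1, 16.6 and 15.4 CPM in acute and at 15.6, 13.8, 17.7, 12.5 and 11.0 CPM in fibrosis, below all healthy libraries, and at 20.2, 27.0 and 33.1 CPM in cirrhosis, which overlapped with the lowest healthy library. The log2 fold change was -1.79 (SE 0.26) in acute, -2.04 (SE 0.27) in fibrosis and -1.18 (SE 0.25, adjusted p = 0.0017) in cirrhosis. Of the other factors of its family, Tfe3 had -1.29 (SE 0.19) in acute and Mitf rose by a log2 fold change of 2.29 (SE 0.33).

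Tfeb binds an E-box, TCACGTGA, which reads the same on both strands. The RefSeq promoter windows of build GRCr8 (250 bases before to 50 after the start) matched 39 of the 48 members by symbol, with Atp6v0d2, Atp6v0e2, Atp6v1b2, Atp6v1c1, Atp6v1h, Ctsb, Hexa, Ppt1 and Psap not in the table. The 8 letters occur in 5 of the 39 windows (12.8%), those of Ctsd, Lamp1, Mcoln1, Atp6v0d1 and Atp6v0e1, and in 0.777% of all 33469 windows. The shorter TCACGTG on either strand, which the 8 letters contain, occurs also in Glb1 and Gaa. That makes 7 of 39 against 3.20% of all windows. The inner 6 letters occur in the same 7 of 39 windows, against 6.42% of all windows. The 8 letters with a G before and a C after, 10 in all, occur in 0 of the 39 windows. This form is in 0.233% of all windows, so rare that 39 windows cannot show whether its share differs. The stretches upstream of the start are shown for Ctsd, Lamp1 and Atp6v0d1, which share the 8 letters and yet moved differently in acute. Ctsd (log2 fold change -2.31) and Atp6v0d1 (-1.58) fell, and Lamp1 (-0.02) was not called. The motif is in capitals, and each line is given 5′ to 3′ on the strand of the gene.
Ctsd, chr1:206968822-206968872, minus strand: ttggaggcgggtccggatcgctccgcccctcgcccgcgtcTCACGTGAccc
Lamp1, chr16:83075082-83075169, minus strand: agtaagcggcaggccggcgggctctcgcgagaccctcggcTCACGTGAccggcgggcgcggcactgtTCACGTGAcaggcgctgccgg
Atp6v0d1, chr19:50357254-50357341, minus strand: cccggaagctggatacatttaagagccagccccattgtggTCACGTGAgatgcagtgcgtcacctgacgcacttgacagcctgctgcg
Lamp1 holds 2 copies in this stretch and Ctsd and Atp6v0d1 hold 1 each. A match of letters is a description and not a shown binding site.

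In acute, 4 of 7 subunits of the membrane sector of the proton pump fell and 1, the rare Atp6v0d2, rose. In the cytosolic sector 6 of 9 rose, the low-count Atp6v1c2 among them. Atp6v0c, the proteolipid of the proton-conducting ring, was at 538, 1189 and 1480 CPM in the lowest, median and highest healthy library. It was at 302, 297, 273, 268 and 283 CPM in acute, at 260, 259, 280, 267 and 247 CPM in fibrosis and at 358, 401 and 488 CPM (lowest, median, highest) in cirrhosis, all below the healthy libraries. Its log2 fold change was -1.84 (SE 0.23) in acute, -1.92 (SE 0.23) in fibrosis and -1.35 (SE 0.23, adjusted p = 0.0005) in cirrhosis. In acute, the log2 fold change was -1.97 for Atp6v0a1 (a membrane subunit that couples the sectors), -2.42 for Atp6v0e2 and -1.58 for Atp6v0d1, while Atp6v0b (-0.54) and Atp6v0e1 (-0.48) were not called by limma-voom. Atp6v0b was called lower by edgeR in acute (-0.62) and by edgeR and DESeq2 in fibrosis (-0.66 and -0.63). Reads of Atp6v0d1 were shared with other genes in 100% of the libraries and those of Atp6v0c in 68.8%.

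In the V1 sector, Atp6v1c1, a subunit of the stalk, was at 22.2, 36.0 and 57.3 CPM in the lowest, median and highest healthy library. It was at 104, 91.0, 104, 97.7 and 98.8 CPM in acute, at 77.9, 84.3, 82.1, 81.2 and 81.9 CPM in fibrosis and at 55.3, 72.6 and 76.7 CPM (lowest, median, highest) in cirrhosis. Acute and fibrosis lay above all healthy libraries. The log2 fold change was 1.49 (SE 0.22, adjusted p = 5e-05) in acute, 1.25 (SE 0.22) in fibrosis and 0.94 (SE 0.20) in cirrhosis. Atp6v1h, a regulatory subunit, rose by 1.03 (SE 0.13) in acute, 0.94 (SE 0.13) in fibrosis and 0.63 (SE 0.12) in cirrhosis on the log2 scale, and Atp6v1e1, of the stalk, by 0.76, 0.62 and 0.80.

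Atp6v1g1, a further stalk subunit, rose in the early groups. It was at 77.7, 94.0 and 104 CPM in the lowest, median and highest healthy library, at 230, 213, 253, 264 and 220 CPM in acute, at 269, 255, 246, 251 and 264 CPM in fibrosis and at 85.6, 88.8 and 97.8 CPM (lowest, median, highest) in cirrhosis. Acute and fibrosis lay above every healthy and every cirrhosis library, and cirrhosis lay within the healthy range. Its log2 fold change was 1.38 (SE 0.12) in acute, 1.54 (SE 0.10) in fibrosis and -0.04 (SE 0.11, adjusted p = 0.78) in cirrhosis. Atp6v1a, the catalytic subunit, was called in cirrhosis and not in acute or fibrosis, with 0.24 (SE 0.17) in acute, 0.08 (SE 0.16) in fibrosis and 0.83 (SE 0.17, adjusted p = 0.0013) in cirrhosis, and cirrhosis was above acute by 0.63 (SE 0.13). Its counts were fractional in 68.8% of the libraries, as were those of Atp6v1f in 96.9%, so both are uncertain. Atp6v1b2, the other subunit of the catalytic head, was not called by limma-voom in any of the 7 comparisons, with 0.14 (SE 0.21) in acute.

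Atp6v0d2, an alternative d subunit known from osteoclasts and macrophages, had 0 counts in all 6 healthy libraries and 0 to 2 counts in the cirrhosis libraries. It had 33, 32, 53, 42 and 10 counts in acute (0.899, 0.872, 1.47, 0.967 and 0.316 CPM) and 67, 23, 74, 48 and 12 counts in fibrosis. Acute was at least 54.0-fold and fibrosis at least 79.1-fold higher than healthy, with 3 counts over the healthy group as the floor. Against the 4 counts of cirrhosis, fibrosis was 87.9-fold higher (95% exact interval 33.8 to 325, counting error only). Atp6v1c2, also of low count, was at 0.484 to 0.758 CPM in acute against 0.103 to 0.258 CPM in healthy. Both passed the count filter through the groups where they were high, so their calls add nothing to the member counts as support.

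**Figure D4:**
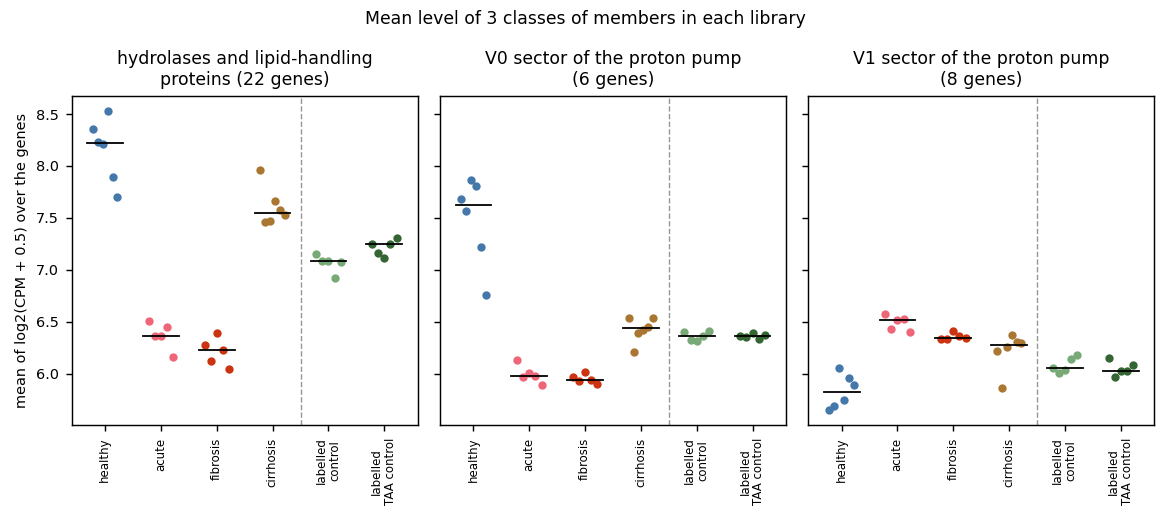
The panels plot, per library, the mean of log2(CPM + 0.5) over 22 hydrolases and lipid-handling genes, 6 V0 genes and 8 V1 genes, with lines at the medians. The dashed line separates the 2 experiments, scaled separately. The medians of the first 2 classes are lowest in acute and fibrosis, and the median of the V1 class is lowest in healthy.

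As a single description per library, the mean log2 level of the V1 genes minus that of the V0 genes was -1.85 at the median of the healthy libraries, with a range from -2.07 to -0.86. It was 0.51 at the median in acute, 0.40 in fibrosis and -0.19 in cirrhosis. In the TAA experiment it was -0.28 (-0.35 to -0.22) in labelled control and -0.30 (-0.38 to -0.21) in labelled TAA control. Both groups thus lay near cirrhosis and above every healthy library of the CCl4 model. The healthy libraries stood apart from the other 3 groups of the model and from both TAA groups. Healthy replicate 6, at -0.86, was nearest to them. The same library was the lowest healthy library for Psap (3543 CPM), Ctsd (1038 CPM), Hexa (172 CPM), Tfeb (30.5 CPM) and Atp6v0c (538 CPM). Without it, 24 members fell and 10 rose in acute, where 5136 of all 14084 genes tested were called lower and 5366 higher.

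After 6 weeks of CCl4, 27 of 43 members fell and 7 rose against healthy, where 70.2% of the 14538 genes tested were called (35.3% higher, 34.9% lower). The 7 include Atp6v0d2 and Atp6v1c2, which passed the count filter through the fibrosis libraries. The healthy and fibrosis libraries did not overlap in 32 of the 43, against 59.0% of all genes. Of the 22 hydrolases and lipid-handling proteins 20 fell and Npc1 rose, and Lgmn, with 0.31 (SE 0.19), was not called. Ctsb (-0.68), Ctsl (-0.82) and Mcoln1 (-0.65) passed the threshold in fibrosis and not in acute, but between fibrosis and acute these 3 were not called. In that direct comparison 0 of 43 members were called by limma-voom, edgeR or DESeq2, where 11.0% of all genes were called (10.2% higher, 0.732% lower), and 12 members had an unadjusted p below 0.05. The largest differences with an adjusted p below 0.05 were Ctsk (log2 fold change 0.48, SE 0.10) and Gaa (-0.43, SE 0.13), neither of 1.5-fold. Acute and fibrosis share the healthy libraries in their comparisons with healthy.

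In cirrhosis, 18 of 41 members fell and 5 rose against healthy, where 51.8% of all genes were called (27.1% higher, 24.7% lower). With library sizes in place of TMM, which shifted all genes by a median log2 fold change of 0.34, the split was 12 lower and 10 higher. Of all 14789 genes tested, 2303 were then called lower and 5724 higher. Hydrolases differed by class. All 6 glycosidases fell, with log2 fold changes from -1.63 (Gaa) to -0.63 (Gusb). The groups did not overlap in 2 of the 6, against 27.2% of all genes. Gusb, with fractional counts in 56.25% of the libraries, lost its call with a filter of 1 CPM (-0.54). It also lost it without cirrhosis replicate 3 (-0.58), cirrhosis replicate 5 (-0.58) or healthy replicate 3 (-0.56). Without TMM, Gusb (-0.29), Glb1 (-0.41) and Neu1 (-0.36) were not called. Of the 8 cysteine cathepsins and legumain 0 were called, with values from -0.55 (Ctsb, SE 0.20, adjusted p = 0.034) to 0.76 (Ctss, SE 0.45, adjusted p = 0.16). Against healthy replicates 3 and 5 alone, 4 of these 8 were called, where 2826 of 15598 genes tested were called higher and 3591 lower. Ctss (2.11) and Ctsh (1.51) were higher, and Ctsl (-0.81) and Ctsb (-0.63) were lower. These 2 replicates, picked after seeing the data, were the lowest healthy libraries for Ctss (28.8 and 25.6 CPM) and Ctsh (42.6 and 53.8 CPM). They were the highest for Ctsl (9061 and 8886 CPM), so the calls of these genes follow in part from the choice. Macrophage marker sums were 653 and 748 CPM in healthy replicates 3 and 5 and 1458 to 4079 CPM in cirrhosis. In the V0 sector 5 of 6 fell, from -1.45 (Atp6v0e2) to -0.92 (Atp6v0a1), and in the V1 sector 4 of 8 rose. Only 1 of these 4, Atp6v1a, kept its call against healthy replicates 3 and 5 alone.

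Cirrhosis stood above fibrosis in most hydrolases. In this comparison 23 of 43 members rose and 4 fell, where 63.8% of all genes were called (34.3% higher, 29.5% lower). The 4 include the low-count Atp6v0d2 and Atp6v1c2, which passed the count filter through the fibrosis libraries. The 2 groups did not overlap in 34 members, against 63.3% of all genes. The largest rises were Ctss (log2 fold change 3.66, SE 0.45), Ctsh (3.29, SE 0.27) and Ppt1 (2.48, SE 0.14), and the members that fell were Atp6v0d2, Atp6v1g1 (-1.52, SE 0.06), Atp6v1c2 (-0.99, SE 0.28) and Lgmn (-0.68, SE 0.18). Ppt1 was at 16.5, 15.2, 14.0, 14.2 and 14.4 CPM in fibrosis and at 67.9, 82.6 and 110 CPM (lowest, median, highest) in cirrhosis, without overlap. All 15 tested Kupffer cell and macrophage markers and 12 of 13 LSEC markers were also called higher in cirrhosis than in fibrosis, as were 10 of 12 hepatocyte, 7 of 10 stellate cell (1 was lower), 5 of 5 neutrophil, 6 of 7 lymphocyte and 3 of 6 cholangiocyte markers. Their part in the member values was not tested. Against acute, 20 of 43 rose and 6 fell, where 69.3% of all genes were called (37.5% higher, 31.8% lower). The 6 include Atp6v0d2 and Atp6v1c2, which passed the count filter through the acute libraries.

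Acute against healthy and cirrhosis against fibrosis share no library. Of the 24 members lower in acute, 22 (91.7%) were higher in cirrhosis than in fibrosis, and over all genes lower in acute this held for 72.7%. Of the 8 members higher in acute, 3 (37.5%) were lower in cirrhosis than in fibrosis, and over all genes higher in acute this held for 67.1%. These 3 were Atp6v1g1 and the low-count Atp6v0d2 and Atp6v1c2. Both low-count genes passed the count filter through the groups where they were high, so they add nothing to this share as support.

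All members together took 2.04% of the counts of a library at the median in healthy, with a range from 1.63 to 2.30%. The share was 1.24% (1.03 to 1.31%) in acute, 1.03% (0.941 to 1.07%) in fibrosis and 1.54% (1.41 to 1.75%) in cirrhosis. Acute and fibrosis lay below all healthy and all cirrhosis libraries, and healthy overlapped with cirrhosis. Shares of counts are not corrected for transcript length.

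The other genes of the pathway were taken from lists. Of 33 other lysosomal hydrolases, 29 fell and 1, Ids (iduronate sulfatase), rose in acute, and the same numbers held in fibrosis. In cirrhosis 14 fell and 3 rose against healthy, where 51.8% of all genes were called (27.1% higher, 24.7% lower). The total of 17 called of 33 thus lay near the background, but the lower share lay above it and the higher share below it. Against fibrosis 27 rose and 1 fell in cirrhosis, where 34.3% of all genes were called higher and 29.5% lower. Of 33 other membrane proteins and transporters of the lysosome, 13 fell and 5 rose in acute. Among 18 genes that deliver hydrolases to lysosomes, 9 fell and 4 rose in acute. Sort1, a sorting receptor, fell (log2 fold change -3.17, SE 0.21), while Gnptab, which makes the mannose 6-phosphate tag of the hydrolases, rose (1.62, SE 0.26). Of 16 genes of nutrient sensing and control of the Tfeb family, 7 rose and 4 fell in acute. In acute, 73.4% of all genes were called (35.5% higher, 37.9% lower). The called shares of the delivery and nutrient lists and the lower share of the membrane list lay near these values. The called and higher shares of the membrane list lay below them. By direction, the delivery list leaned lower and the nutrient list leaned higher than all genes, in lists of only 18 and 16 genes. Cst3, the secreted inhibitor of cysteine cathepsins, fell by 4.23 (SE 0.28) on the log2 scale in acute, and Cstb, its cytosolic relative, was not called (-0.17, SE 0.15).

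In the TAA experiment the groups differed in few members. Against labelled control, 4 of 41 members were higher and 2 lower in labelled TAA control, where 27.6% of all genes were called (12.7% higher, 14.9% lower). The called members were Neu1 (log2 fold change 0.75, SE 0.11), Ppt1 (0.73, SE 0.10), Lgmn (0.69, SE 0.09) and Ctsd (0.63, SE 0.07) in the higher direction and Npc1 (-1.12, SE 0.24) and Ctsk (-0.83, SE 0.14) in the lower. In the V0 sector 0 of 6 and in the V1 sector 0 of 8 were called by limma-voom, and edgeR and DESeq2 each called Atp6v1b2 lower.

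Ctsd was at 579, 513, 482, 509 and 501 CPM in labelled control and at 839, 779, 827, 775 and 781 CPM in labelled TAA control. Lgmn was at 187, 222, 202, 171 and 220 CPM in the first and at 327, 295, 360, 313 and 316 CPM in the second. Both genes were higher in all 5 libraries labelled TAA control than in any labelled control. Npc1 was at 42.8, 35.4, 44.1, 78.2 and 81.4 CPM in labelled control, with the high values in replicates 4 and 5, and at 24.4, 25.3, 20.2, 28.3 and 25.7 CPM in labelled TAA control. The groups did not overlap. Ctsk was at 212, 138, 163, 204 and 211 CPM in labelled control and at 103, 125, 110, 89.0 and 92.7 CPM in labelled TAA control, again without overlap.

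Psap was nearly level between these groups, at 2026 to 2317 CPM in labelled control and 2070 to 2323 CPM in labelled TAA control (log2 fold change 0.05, SE 0.07). Ctss was at 9.45, 9.15, 15.9, 3.91 and 5.28 CPM in labelled control and at 15.8, 10.1, 9.26, 26.6 and 30.4 CPM in labelled TAA control, where replicates 14 and 15 were highest (log2 fold change 1.06, SE 0.44, adjusted p = 0.064). Macrophage marker sums ran in parallel, at 41.7 to 297 CPM in labelled control, 193 to 366 CPM in labelled TAA control replicates 10, 12 and 13, and 769 and 813 CPM in replicates 14 and 15. Stellate cell markers summed to 1719 to 4700 CPM in labelled control and 206 to 307 CPM in labelled TAA control, and hepatocyte markers to 1689 to 4569 CPM and 487 to 1181 CPM. LSEC markers summed to 25246 to 32319 CPM in labelled control and 33111 to 43105 CPM in labelled TAA control, where 6 of 13 were called higher and 0 lower. Their part in the member values was not tested. Replicates 14 and 15 were the most alike pair (chi-square over genes of 3.05 per degree of freedom, against 25.2 or more for the most alike pair of each other group). This exceeds sampling noise, but it does not show that replicates 14 and 15 came from different rats. They are counted as 2 samples here. Without both, a choice also made after seeing the data, 5 members were higher and 3 lower. Of all 14746 genes then tested, 1752 were called higher and 2002 lower.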

How the data were processed

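The files hold, per the labels and the study's methods, expected counts per gene that the authors made with RSEM after STAR alignment to Rnor_6.0. Versions are not given in the sources used here. The deposited expected counts were rounded to whole numbers. Low-count genes were removed with filterByExpr, libraries were scaled by TMM, and the 2 groups of each comparison were fitted with limma-voom (limma 3.58.1, edgeR 4.0.16, R 4.3.3). A gene was called at a Benjamini-Hochberg adjusted p below 0.05 over all genes tested and a fold above 1.5. The study's methods used unadjusted p-values, which were tried as an alternative, as were edgeR's quasi-likelihood test and DESeq2 1.42.0. CPM levels were scaled within each experiment.

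The members, roles and lists were chosen with earlier results of these data known. Text names genes by a rule: role leaders and, in each comparison, the 3 members with the largest rise and fall, with a few others added after their values were seen. Samples were grouped by the treatment label, and replicate numbers come from the titles. The study calls its LSEC preparations independent isolations, and p-values measure the spread between these libraries. Read depth sets the counting error only, and fractional counts of a gene show reads shared with others. Figures were drawn with matplotlib 3.10.9.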

Additional observations from a re-analysis of the deposited data

Results flagged for a closer look

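Of 246 sets of libraries (41 members in 6 groups), 15 held a library apart from the rest, its gap to the nearest library being over Dixon's critical share of the range. Chance alone gives this in about 1 set of 20. Cirrhosis replicate 2 was the low library for 5 members. It had 150 CPM for Atp6v0a1 (the others 180 to 199), 48.0 for Atp6v0b (68.3 to 79.4), 85.7 for Atp6v1b2 (167 to 226), 41.1 for Atp6v1d (56.1 to 64.5) and 41.5 for Npc1 (64.3 to 82.4). Acute replicate 8 was the low library for Ctsd at 302 CPM (471 to 540), Lipa at 72.4 CPM (112 to 129) and Ppt1 at 14.0 CPM (17.9 to 18.3).

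Neu1 had a high library in 3 groups, at 44.6 CPM in acute replicate 4, 63.9 CPM in cirrhosis replicate 1 and 37.8 CPM in fibrosis replicate 15. Atp6v1g1 was high at 97.8 CPM in cirrhosis replicate 6, and Atp6v1a was high at 93.6 CPM in labelled TAA control replicate 10. In labelled control, Ctsh was low at 26.2 CPM in replicate 4 and Man2b1 high at 223 CPM in replicate 5.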

How the results depend on the processing

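No called member changed its direction under any of the settings tried, and the total called stayed within 1.5 times the reported one in the 3 comparisons with healthy and in the 2 of cirrhosis with the earlier groups. With no fold threshold, 5 members were called between fibrosis and acute (2 higher, 3 lower), 21 in the TAA experiment (13 higher, 8 lower), and 10 were lower in cirrhosis than in fibrosis and 10 than in acute. With no low-count filter 13 members were higher in acute, the added ones being Lamp2, Lgmn and 3 pump subunits not tested otherwise, and 7 were lower in cirrhosis than in fibrosis, with the same 3 subunits added. With a filter of 1 CPM 2 were lower there, as Atp6v0d2 and Atp6v1c2 were no longer tested. Library size without TMM gave 10 higher in cirrhosis, and moved the median of all genes against healthy by 0.34 to 0.41 on the log2 scale. With healthy replicates 3 and 5 alone, 3 were higher in cirrhosis. Leaving out 1 library at a time gave 30 to 34 members called in acute (7 to 10 higher, 22 to 25 lower), 32 to 35 in fibrosis (6 to 7, 26 to 28), 22 to 26 in cirrhosis (4 to 7, 17 to 20), 0 between fibrosis and acute, 27 to 28 (23 to 24, 3 to 4) and 24 to 28 (18 to 21, 6 to 7) for cirrhosis against fibrosis and acute, and 6 to 8 (4 to 6, 2 to 3) in the TAA experiment.

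Without the most abundant member of each library, the median share of counts was 1.40% in healthy, 0.748% in acute, 0.641% in fibrosis, 1.01% in cirrhosis, 0.851% in labelled control and 0.883% in labelled TAA control. The replicate numbers did not pair the samples (correlation of the deviations of same-numbered libraries from -0.22 to 0.25). The fit with the replicate number as a block called 33 members in acute against healthy, 23 in cirrhosis against healthy and 24 in cirrhosis against acute, and the best match of a library was its own number in 3 of 14 cases. Members with few counts, such as Atp6v0d2 and Atp6v1c2, are limited by depth, and the 5 untested pump subunits had at most 22 counts in a library.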
